A study of Arabidopsis thaliana with 10 samples.

Results

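The PSEUDO-RESPONSE REGULATOR (PRR) genes and the genes of the evening complex form the daytime and evening parts of the plant circadian clock, and their transcript levels were described in inflorescence stems of Arabidopsis thaliana. The 10 genes were taken by locus: PRR9, PRR7, PRR5, PRR3, GIGANTEA (GI), TOC1, LUX, BROTHER OF LUX (BOA), ELF4 and ELF3, named here in the order of their known daily peak, from morning to night. All 10 are among the 23615 genes of the deposited tables, and all 10 reached the minimum set for comparison, 1 FPKM in at least 1 library, as did 18858 genes in all. FPKM counts fragments per kilobase of transcript, scaled to all mapped fragments of a library. The 10 genes were chosen by locus with their FPKM in all 4 libraries already known, so their levels and differences are a description and carry no test.

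RNA was sequenced from the stem of an atx1 mutant, at segment II, and from 3 segments of the stem of the wild type (WT, accession Col). Stems 20 cm tall were cut, counting from the top, at 0 to 3 cm for segment I, at 5 to 7 cm for segment II and at 10 to 12 cm for segment III. Plants of both genotypes grew at 22 °C in long days of 16 h light and 8 h dark, with no treatment named. ATX1 encodes a methyltransferase of lysine 4 of histone H3, and the sources used here do not say which mutation atx1 carries. Each group is 1 library, so no spread between replicates is known, no test between groups is possible, and neighbours in any order of levels below cannot be called different. The sources used here do not give the time of day at which the stems were cut, so genotype and time of cutting cannot be told apart.

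The clock runs as a ring of genes that repress each other in turn. The MYB factors CCA1 and LHY peak at dawn and repress the evening genes. The PRR proteins follow each other through the day in waves and repress CCA1 and LHY, and TOC1, the last of them, does so in the evening. ELF3, ELF4 and a DNA-binding partner, LUX or its close relative BOA, assemble at dusk into the evening complex, which represses PRR9, PRR7 and growth genes such as PIF4 during the night. GI is a large evening protein that stabilises the F-box protein ZTL, which in turn marks TOC1 and PRR5 for breakdown.

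The libraries were of like depth, which steps of 1 fragment in low values of short genes put at about 19100000 to 20100000 fragments each. ATX1 (AT2G31650) was at 21.76 FPKM in the library labelled atx1 II, against 4.02, 6.09 and 3.54 FPKM in WT I, WT II and WT III. It was thus higher in the library labelled as the mutant, so that library is named by its label throughout and every direction drawn from it rests on that label. The tissue markers of secondary walls, 5 genes of fibres and xylem, were all present and 5 of 5 were lower by at least 2-fold in the library labelled atx1 II than in WT II, with a summed level of 561.09 FPKM in the library labelled atx1 II and of 160.65, 2824.86 and 3139.74 FPKM in WT I, WT II and WT III. Of 5 heat shock genes, all 5 were lower by at least 2-fold in the library labelled atx1 II than in WT II, with sums of 10.58 and 274.59 FPKM, and HSP17.6A was listed at 0 in the library labelled atx1 II alone. Phloem markers summed to 1281.03 FPKM in the library labelled atx1 II and to 714.25 FPKM in WT II (1 of 5 higher, 0 lower, 0 listed at 0). That gap lay in the sugar exporters SWEET11 (610.66 and 213.67 FPKM) and SWEET12 (467.22 and 243.94 FPKM), while SUC2, APL and SEOR1 had differences of -0.14, -0.06 and -0.91, and the list's median was -0.06. Photosynthesis markers summed to 9486.64 FPKM in the library labelled atx1 II and to 10893.3 FPKM in WT II (1 of 5 lower, 0 listed at 0). Epidermal markers summed to 292.94 and 814.16 FPKM in the same libraries (1 of 5 lower). That gap lay mostly in CER1 (5.64 and 355.28 FPKM) and CER6 (244.57 and 413.92 FPKM). ATML1 and FDH had differences of 0.39 and -0.14, and the list's median was -0.14. Among these markers PDF1 was listed at 0 both in the library labelled atx1 II and in WT III and was at 0.04 FPKM in WT II. The part of these differences in tissue or stress state in the clock gene levels was not tested. In bulk tissue, fewer cells of a type and less RNA per cell cannot be told apart.

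In the library labelled atx1 II, 2 day-phase repressors, PRR7 and PRR5, were higher than in WT II, and the 2 DNA-binding subunits of the evening complex, LUX and BOA, were lower. The other 6 genes lay within 2-fold. Differences were taken on the scale of log2(FPKM + 1), and a gene was called at a difference of at least 1, that is 2-fold. Of all genes compared, 14.1% were higher by this rule and 8.33% lower, and since the 10 genes were chosen with this contrast in view nothing is read from their counts of 2 and 2. The median difference of the 10 genes was -0.21, beside 0.28 over all genes compared. Scaling by the median of ratios moved the median over all genes to 0.03. The split of calls over all genes was then 1698 higher and 2239 lower, beside 2665 and 1570 as deposited, and the same 4 of the 10 genes passed 2-fold.

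**Figure D1:**
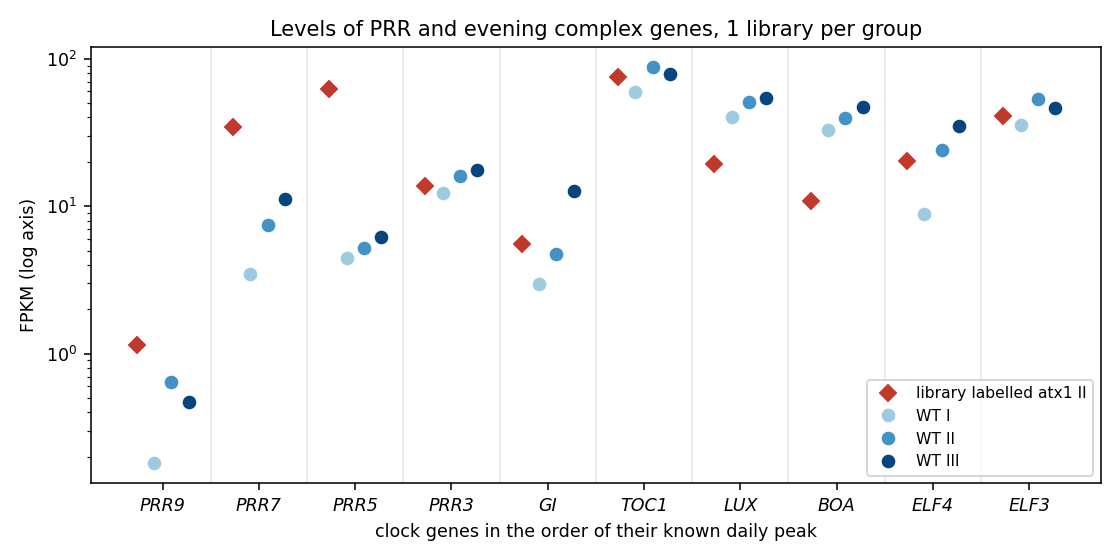
FPKM (log axis) of the 10 genes in the library labelled atx1 II (red diamonds) and in WT I, WT II and WT III (blue circles, light to dark), 1 library per group and no error known. PRR9, PRR7 and PRR5 lie above all 3 WT segments in the library labelled atx1 II, PRR9 at low levels. LUX and BOA lie below them, and TOC1 is the highest of the 10 in every library.

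PRR5 (AT5G24470), a repressor of CCA1 and LHY that peaks in the afternoon, was at 61.91 FPKM in the library labelled atx1 II, against 4.45, 5.22 and 6.19 FPKM in WT I, WT II and WT III. The level in the library labelled atx1 II stood far above a narrow WT range, and it was 11.9 times that of WT II (log2 difference 3.34). This was the widest gap between that library and WT II among the 10 genes. By rank, PRR5 lay above 88.2% of all genes compared in the library labelled atx1 II, and above 27.5%, 34.5% and 34.1% of them in WT I, WT II and WT III.

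PRR7 (AT5G02810), which peaks around midday and acts with PRR9 and PRR5 on the same dawn genes, was at 34.65 FPKM in the library labelled atx1 II and at 3.45, 7.44 and 11.15 FPKM in WT I, WT II and WT III. It was again above every WT segment, at 4.66 times the WT II level (log2 difference 2.08). The WT segments themselves were spread more widely than for PRR5, and against the highest of them, WT III, the level was 3.11 times as high.

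PRR9 (AT2G46790), the earliest of the PRR genes in the day, was the lowest of the 10 in all 4 libraries. It was at 1.15 FPKM in the library labelled atx1 II and at 0.18, 0.64 and 0.47 FPKM in WT I, WT II and WT III. As for PRR7, the library labelled atx1 II was the highest and WT I the lowest, but WT II stood above WT III and the values are small: with the genomic span of the gene as the longest possible transcript, they stand for at most 57 fragments in the library labelled atx1 II and at most 9, 32 and 23 in the WT segments. The log2 difference between the library labelled atx1 II and WT II was 0.39, within 2-fold.

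PRR3 (AT5G60100), a partner of TOC1 known to shield it from ZTL in vascular tissue, was at 13.81 FPKM in the library labelled atx1 II and at 12.3, 16.0 and 17.65 FPKM in WT I, WT II and WT III. Its level in the library labelled atx1 II lay inside the WT range (log2 difference to WT II -0.20). TOC1 (AT5G61380), also called PRR1, was at 75.37 FPKM in the library labelled atx1 II and at 59.25, 87.7 and 79.03 FPKM in the WT segments, likewise inside their range (-0.22). GI (AT1G22770) was at 5.57 FPKM in the library labelled atx1 II and at 2.99, 4.72 and 12.77 FPKM in WT I, WT II and WT III. Its difference to WT II was 0.20, and -0.04 under median-of-ratios scaling, so it has no settled direction there. Against WT III, GI was lower by at least 2-fold (-1.07).

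The makeup of PRR transcripts differed between the libraries. The 5 PRR genes summed to 186.89 FPKM in the library labelled atx1 II and to 79.63, 117 and 114.49 FPKM in WT I, WT II and WT III. Of that sum PRR5 gave 33.1% in the library labelled atx1 II, against 5.59%, 4.46% and 5.41% in the WT segments. PRR7 gave 18.5%, against 4.33%, 6.36% and 9.74%. TOC1 gave 40.3%, against 74.4%, 75% and 69%, although its own level lay inside the WT range. The ratio of PRR5 to TOC1 was 0.821 in the library labelled atx1 II and 0.0751, 0.0595 and 0.0783 in WT I, WT II and WT III.

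**Figure D2:**
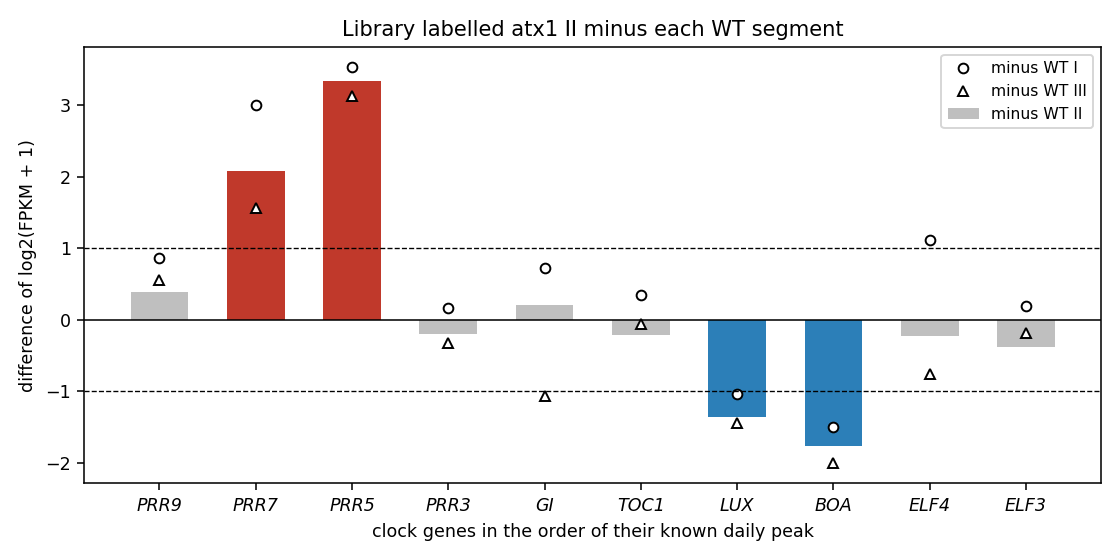
Difference of log2(FPKM + 1) between the library labelled atx1 II and WT II (bars, red higher and blue lower by at least 2-fold, grey within 2-fold), with the same library set against WT I (circles) and WT III (triangles). Dashed lines mark 2-fold, and the same 4 genes (PRR7, PRR5, LUX and BOA) lie past them against each WT segment.

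Among the evening complex genes, LUX (AT3G46640, named PCL1 in the tables), a GARP-type MYB factor that carries the complex to DNA, was at 19.21 FPKM in the library labelled atx1 II, against 40.51, 51.02 and 54.27 FPKM in WT I, WT II and WT III. That level was below every WT segment, at 0.377 of WT II (log2 difference -1.36). BOA (AT5G59570), its closest relative and alternative subunit, was at 10.93 FPKM in the library labelled atx1 II, against 32.7, 39.81 and 47.15 FPKM in the WT segments. It too was below them all, at 0.275 of WT II (-1.77). LUX and BOA are similar in sequence, and the sources used here do not say how reads that match both were shared out, so the split between them is uncertain. Their summed level has the same direction, since both were lower.

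ELF3 (AT2G25930), the scaffold of the complex, was at 40.64 FPKM in the library labelled atx1 II and at 35.44, 53.23 and 46.34 FPKM in WT I, WT II and WT III. ELF4 (AT2G40080), a small protein that binds ELF3, was at 20.23 FPKM in the library labelled atx1 II and at 8.84, 23.99 and 34.97 FPKM in the WT segments. For both genes the library labelled atx1 II lay inside the WT range, with log2 differences to WT II of -0.38 for ELF3 and -0.24 for ELF4. Against WT I, ELF4 was higher by at least 2-fold (1.11). ELF4 spans 660 bp in the RefSeq annotation (assembly TAIR10.1), so its values stand for at most 256 fragments in the library labelled atx1 II and at most 117, 304 and 441 in WT I, WT II and WT III.

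The 4 evening complex genes summed to 91.01 FPKM in the library labelled atx1 II and to 117.49, 168.05 and 182.73 FPKM in WT I, WT II and WT III. LUX and BOA gave 21.1% and 12% of that sum in the library labelled atx1 II. In WT II they gave 30.4% and 23.7%. The ratio of LUX to ELF3 was 0.473 in the library labelled atx1 II and 1.14, 0.958 and 1.17 in WT I, WT II and WT III, so it was lower there than in any WT segment. The ratio of LUX to BOA was 1.76 in the library labelled atx1 II and 1.24, 1.28 and 1.15 in the WT segments.

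Set against all 3 WT segments at once, 3 of the 10 genes (PRR9, PRR7 and PRR5) lay above the highest WT level in the library labelled atx1 II, as did 39.9% of all genes compared. A further 2 (LUX and BOA) lay below the lowest WT level, as did 23.8% of all genes. Neither count is above the share over all genes, so nothing is read from the counts. In the listed order of daily peak, the 3 genes above the WT range come first, and the 2 below it come after TOC1. ELF4 and ELF3, listed last, lay inside the WT range, and PRR9 was within 2-fold of WT II (0.39). Peak times were not measured here, so the places of neighbours in the listed order are not certain. Against WT III alone, 5 of 10 genes passed 2-fold, PRR7 and PRR5 on the higher side and LUX, BOA and GI on the lower, beside 18.7% of all genes in either direction. Against WT I alone, it was again 5 of 10, PRR7, PRR5 and ELF4 on the higher side and LUX and BOA on the lower, beside 37.4% of all genes. The comparisons share their libraries, and the choice of genes used these values, so this order is a description.

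**Figure D3:**
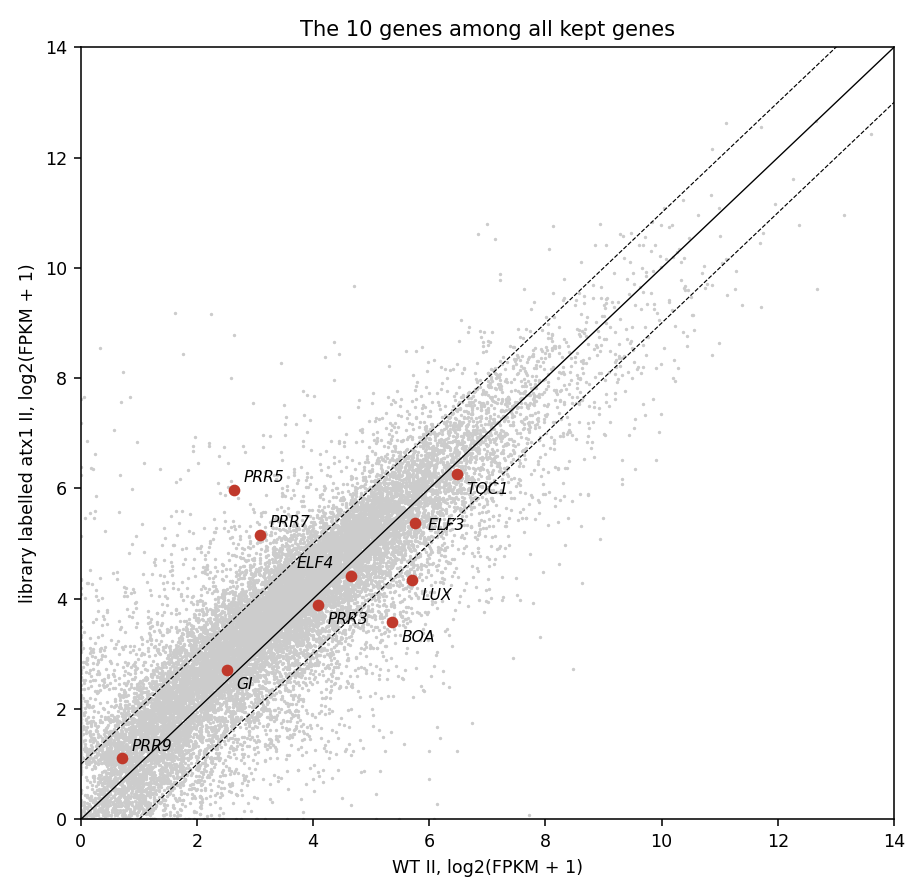
Level of every compared gene (grey) as log2(FPKM + 1) in the library labelled atx1 II (vertical) and in WT II (horizontal), with the 10 clock genes in red. The solid line marks equal levels and the dashed lines 2-fold; PRR5 and PRR7 lie above the upper line, LUX and BOA below the lower one, and the other 6 between them.

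Along the wild-type stem, all 10 genes had their lowest level in the young top segment, WT I. Over all genes compared, 37.6% were lowest there, and under median-of-ratios scaling it was again 10 of 10, beside 42.3%. Few of the steps were large. Between WT I and WT II, 1 of 10 genes, ELF4, was higher by at least 2-fold (log2 difference 1.34), beside 9.88% of all genes, and 0 were lower, beside 16.1%. PRR7 came next at 0.92, just inside 2-fold on this scale, and passed it at 1.09 under median-of-ratios scaling. The median difference of the 10 genes between WT I and WT II was 0.50, beside -0.13 over all genes. Over all genes 1863 were higher and 3031 lower at this step as deposited, and 2322 and 2482 under median-of-ratios scaling.

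Between WT II and WT III, GI alone was higher by at least 2-fold (1.27), beside 2.85% of all genes, and 0 of 10 were lower, beside 2.35%. Over all genes the split was 538 higher and 444 lower, and 310 and 744 under median-of-ratios scaling. The median of the 10 genes, 0.17, was close to that of all genes, 0.19. From end to end, WT III exceeded WT I by at least 2-fold in 3 of 10 genes, beside 12% of all genes, and 0 were lower, beside 12.4%. These were ELF4 (3.96 times, log2 difference 1.87), GI (4.27 times, 1.79) and PRR7 (3.23 times, 1.45).

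The other 7 genes stayed within 2-fold in all 3 comparisons among WT segments, as did 66.2% of all genes. In LUX, BOA, TOC1, ELF3, PRR3 and PRR5 the highest WT segment was 1.34 times (LUX) to 1.5 times (ELF3) the lowest. PRR9 had a wider ratio, 3.56, at levels under 1 FPKM. Levels followed the order I, II, III in 7 of 10 genes as deposited (25.7% of all genes) and in 5 of 10 under median-of-ratios scaling (20.7%), where PRR3 and LUX no longer did. At the step between WT I and WT II, 5 of 5 secondary wall markers were higher in WT II, and so were 3 of 5 phloem markers, which summed to 200.88, 714.25 and 395.39 FPKM along the stem with none listed at 0. Their part in the clock gene levels was not tested.

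**Figure D4:**
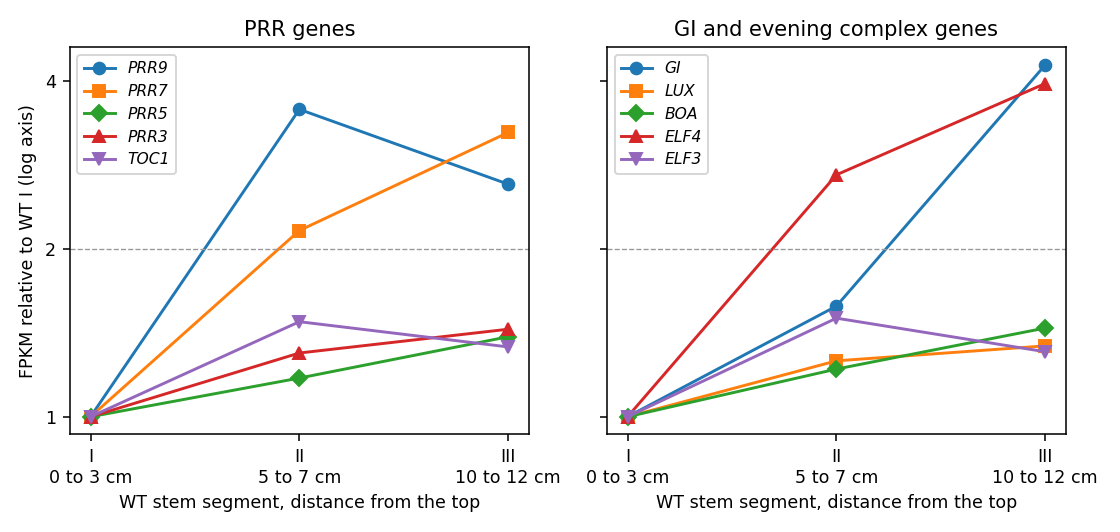
FPKM relative to WT I (log axis) in the 3 WT segments, with distance from the top of the stem, for the 5 PRR genes (left) and for GI and the 4 evening complex genes (right), 1 library per segment. No gene falls below its WT I level, and GI, ELF4 and PRR7 end above the dashed 2-fold line, as does PRR9 at levels under 1 FPKM.

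The order of levels among the 10 genes was much the same in the WT segments. TOC1 was first in each, at 59.25, 87.7 and 79.03 FPKM. LUX, ELF3 and BOA filled the next 3 places in each, and PRR9 was last. In the library labelled atx1 II, TOC1 was again first and PRR9 last, but PRR5 was second, where it was seventh, eighth and ninth in WT I, WT II and WT III. The median of the 10 levels was 19.72 FPKM in the library labelled atx1 II and 10.57, 20.00 and 26.31 FPKM in WT I, WT II and WT III.

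Other clock genes were read from lists chosen with earlier results known. Of 61 such genes 58 were compared, and 19 were higher by at least 2-fold in the library labelled atx1 II than in WT II and 1 was lower, with a median difference of 0.70. Over all genes compared 14.1% were higher and 8.33% lower, with a median of 0.28, and the counts of each list below are to be read beside these shares. Under median-of-ratios scaling, tried after the data were seen, 18 of the 58 were higher and 2 lower (median 0.45), beside 1698 and 2239 of all genes. Among the dawn-phased MYB factors, CCA1 was at 121.08 and 2.91 FPKM in the library labelled atx1 II and WT II, LHY at 108.31 and 2.8, RVE8, an activator of evening genes, at 70.93 and 9.21, and RVE1, which links the clock to auxin, at 116.85 and 34.98. RVE7 was the lower one, at 17.69 and 37.78 FPKM (-1.05). In that list 4 of 9 were higher and 1 lower (median 0.88), beside 14.1% and 8.33% of all genes (median 0.28).

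All 4 LNK genes, coactivators that work with RVE8 to switch on PRR5 and TOC1, were higher in the library labelled atx1 II (median 3.32), beside 14.1% of all genes. LNK2 was at 182.72 FPKM there and at 10.34 FPKM in WT II. LNK3 was at 36.46 and 2.63 FPKM, LNK4 at 25.11 and 1.71 and LNK1 at 8.3 and 2.19, in the same order of libraries. LNK1 lay within 2-fold against WT III, where it was at 4.99 FPKM.

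In the ZTL family, 1 of 3 was higher in the library labelled atx1 II, beside 14.1% of all genes. It was FKF1, a blue-light receptor of day length, at 16.43 FPKM against 4.56 FPKM in WT II. Against WT III, where FKF1 was at 8.43 FPKM, it lay within 2-fold (0.89). ZTL itself, which marks TOC1 and PRR5 for breakdown, was at 34.3 and 25.38 FPKM. Of 5 compared relatives of the 10 genes, ELF4-L3 alone was higher (1 of 5, beside 14.1% of all genes), at 10.87 FPKM in the library labelled atx1 II and 1.64 FPKM in WT II. ELF4-L1 and EEC did not reach the minimum for comparison. Among 12 corepressors and other clock regulators, 0 passed 2-fold (median 0.39), beside 14.1% of all genes higher and 8.33% lower, and the largest difference was that of TPR2, a TOPLESS-related corepressor, at 26.84 and 14.66 FPKM (0.83). Under median-of-ratios scaling 1 of the 12 was lower, the histone demethylase gene JMJ30, at 49.66 and 87.65 FPKM as deposited.

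Genes known as targets of the evening complex or the PRR proteins were also read. In the list of growth and cold outputs 4 of 7 were higher and 0 lower in the library labelled atx1 II (median 1.06), beside 14.1% and 8.33% of all genes (median 0.28). Under median-of-ratios scaling it was 3 of 7. The growth-promoting bHLH genes PIF4 and PIF5, which the evening complex represses, were at 48.47 and 62.15 FPKM in that library and at 9.44 and 11.57 FPKM in WT II. The cold response factors CBF2 (38.79 and 18.03 FPKM) and CBF3 (7.0 and 0.58 FPKM) were the others, and as near-identical tandem copies with CBF1 they can share reads. COR27 and COR28 lay just inside 2-fold on the scale of log2(FPKM + 1), at differences of 0.99 each. In WT III, PIF4 and PIF5 were at 10.59 and 24.15 FPKM, CBF3 at 1.88 FPKM and CBF2 at 33.84 FPKM. Of these, CBF2 alone lay within 2-fold between WT III and the library labelled atx1 II (0.19).

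Of 6 photoperiod outputs, 4 were higher in the library labelled atx1 II and 0 lower (median 1.85), beside 14.1% and 8.33% of all genes (median 0.28). FT, the mobile flowering signal, was at 42.51 FPKM there and at 3.89 FPKM in WT II. The DOF factors CDF3 (38.05 and 4.0 FPKM), CDF2 (58.09 and 11.72) and CDF5 (21.79 and 7.2), which repress CO and are themselves repressed by PRR proteins, were the others. Among 4 other clock outputs 0 passed 2-fold, beside the same shares, and the largest difference was that of the catalase gene CAT3, at 6040.57 and 3371.04 FPKM (0.84). Of 8 light input genes 1, PHYA, was higher, at 28.33 and 9.06 FPKM, and 0 were lower, beside the same shares.

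**Figure D5:**
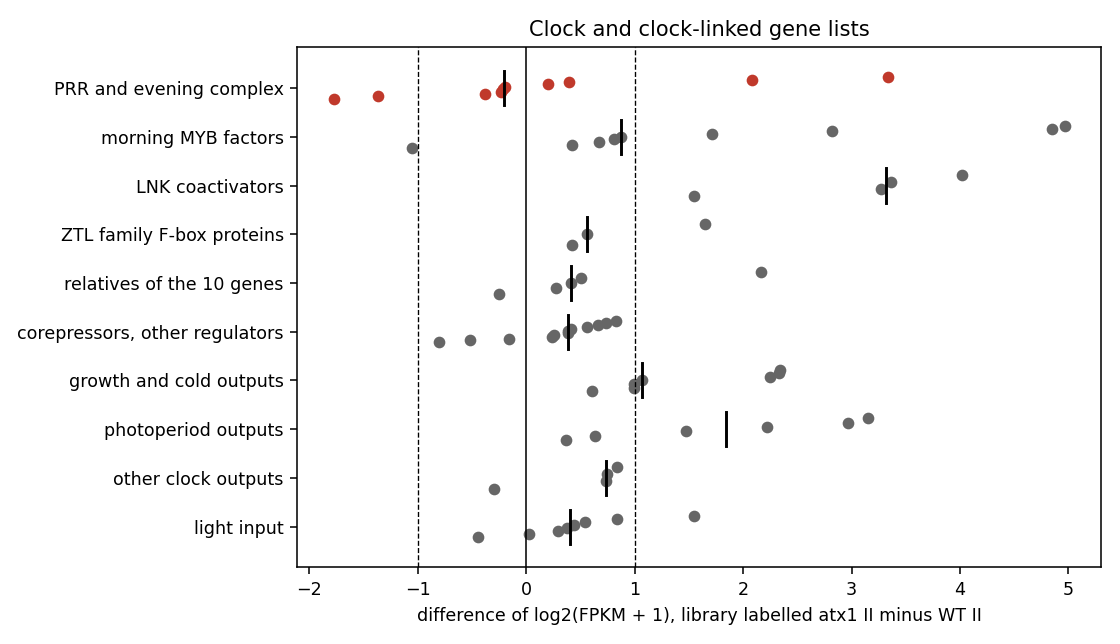
Difference of log2(FPKM + 1) between the library labelled atx1 II and WT II for each compared gene (points) of the 10-gene group (red) and of 9 further lists of clock genes (grey), with each list's median as a black bar and 2-fold as dashed lines. The LNK coactivators all lie past 2-fold on the higher side, and the 10-gene group has genes past 2-fold on both sides.

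Genes with profiles most like those of the 4 called genes were found by the distance between mean-centred log2(FPKM + 1) values over the 4 libraries, among 8337 named genes. Nearest to PRR7 was PAL3 (distance 0.08), at 40.64 FPKM in the library labelled atx1 II and 4.11, 8.82 and 12.2 FPKM in WT I, WT II and WT III, followed by FRO4 and PYL6 (0.20 each). Nearest to PRR5 were CuAO1 (0.16), WRKY75 (0.17) and IGMT1 (0.24). In WT I, WT II and WT III, WRKY75 was at 0, 0.31 and 0.32 FPKM and IGMT1 at 0.11, 0.04 and 0.22 FPKM. FRO4 and PYL6 were at 0.72 and 0.2 FPKM in WT I. At such low levels the pseudocount narrows differences, so the likeness of these genes rests partly on it. Nearest to LUX were MYB77 (0.10), AGC2-1 (0.11) and PGM3 (0.13), and nearest to BOA were IQD26 (0.12), UMAMIT46 (0.15) and PLP9 (0.15). With 4 libraries such likeness is a description of these values.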

How the data were processed

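The deposited values are FPKM per gene and library, made by the authors and given to 2 decimals, per the file headers. Trimmomatic, HISAT, Bowtie2 and RSEM with the build TAIR10 are named per the submitters' processing notes, without versions or order. The 4 RNA libraries were used, and the other 6 of 10 samples were not analysed here. FPKM are not counts, so no count test was run. Genes with at least 1 FPKM in at least 1 library were compared as differences of log2(FPKM + 1), called at 2-fold, in Python 3.11.15 with numpy 2.4.6 and pandas 2.3.3. The pseudocount makes folds of weakly expressed genes look smaller than they are.

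The 10 genes and all lists were chosen with earlier results of these data known. Named were the 10 genes, ATX1, every called gene of each clock list (where none was called, that with the largest difference) and the 3 nearest profiles of each called gene. ZTL, COR27, COR28, ELF4-L1, EEC, JMJ30, single marker genes and the genes of the closing section were named after their values were seen. Depth was fitted from low values (under 1 FPKM) of genes spanning 250 to 900 bp, of which 69.2% to 72% lay within 0.15 of a whole fragment count. Gene names and spans came from RefSeq (assembly TAIR10.1). The calling was tested on simulated data, which checks the code alone, since the spread between stems is not known. Alternatives were other pseudocounts, filters, scalings, fold thresholds and WT libraries.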

Additional observations from a re-analysis of the deposited data

How the results depend on the processing

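PRR7, PRR5, LUX and BOA kept their direction against WT II under both scalings tried, and with WT I or WT III in place of WT II. The filters leave a gene's own value as it is, and the pseudocounts of 0.1 and 0.01 cannot turn its direction. Neither could have changed this result. Nor could the scalings have turned a direction, since they moved the libraries too little. The median-of-ratios factors were 1.09 for the library labelled atx1 II and 0.894 for WT II, and the FPKM sums 696108 and 693193. The comparisons with WT I and WT III restate that these 4 genes lay outside the range of the 3 WT segments. Over the scalings, WT libraries and pseudocounts, the log2 differences ran from 1.55 to 3.00 for PRR7 and from 3.08 to 3.57 for PRR5. They ran from -1.64 to -1.04 for LUX and from -2.05 to -1.50 for BOA. At a 3-fold threshold 1 gene, BOA, was lower in the library labelled atx1 II. ELF4 passed 2-fold against WT I alone (1.11) and GI against WT III alone (-1.07). Between WT II and WT I the count of higher genes was 1 as reported, 3 with pseudocounts of 0.1 or 0.01 (PRR9, PRR7 and ELF4), 2 under median-of-ratios scaling or a 1.5-fold threshold, and 0 at 3-fold. Between WT III and WT II it was 0 at 3-fold. Over all genes, 6071 were higher and 2949 lower in the library labelled atx1 II than in WT II at 1.5-fold, and 919 and 676 at 3-fold. Over the pseudocounts, scalings and WT libraries tried, 171 of 180 recomputed differences of single genes stayed on their side of the threshold. A further 9 newly passed it, and 0 called ones were lost or changed sign. Pseudocounts of 0.1 and 0.01 can only widen a difference, so they could not have lost a call. At a 3-fold threshold, outside this count, LUX (library labelled atx1 II against WT II) and ELF4 (WT II against WT I) lost their calls. So did GI (WT III against WT II) and PRR7 (WT III against WT I). Of the further clock lists, scaled after the data were seen, growth and cold outputs had 3 higher genes under the median of ratios, beside 4 as reported. No library could be left out within a group. Depth limits PRR9 most. Reads that match both LUX and BOA could limit the split between them, and such reads were not measured.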

Other observations

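Of the 10 genes, 2 lie close to another clock gene in the RefSeq annotation (assembly TAIR10.1). PRR9 is separated from CCA1 by 3 protein-coding genes and PRR7 from RVE4 by 2. The genes between PRR9 and CCA1 were at 47.05 and 54.85 FPKM (ZAT), 2.89 and 1.34 FPKM (AT2G46810) and 362.85 and 726.39 FPKM (PSI-P) in the library labelled atx1 II and in WT II. On the scale of log2(FPKM + 1) their differences were -0.22, 0.73 and -0.9994, so none of them was called. The FPKM ratios of AT2G46810 and PSI-P, without the pseudocount, are wider than 2-fold. Between PRR7 and RVE4, RHL2 was higher at 5.26 and 2.02 FPKM (1.05), and AT5G02830 was at 8.42 and 16.9 FPKM (-0.93). RVE4 itself was at 167.94 and 95.27 FPKM (0.81), within 2-fold.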
